A study of Mus musculus with 24 samples.

Results

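The comparison concerned mouse induced pluripotent stem (iPS) cells that carry a doxycycline-inducible miR-203 knock-in, set against wild-type iPS cells, before any doxycycline was given (t=0). Its members were the knock-in clones N5 and N9 at t=0 and the wild type at t=0, chosen by clone name and stage: 3 libraries, sequenced as 6 of the 24 deposited samples. The knock-in libraries are labelled as tKI iPS cells in which miR-203 can be induced transiently, and both clones were grown, like the wild type, over feeder cells in a medium with serum replacement. Doxycycline is the drug that switches the transgene on, and at t=0 neither genotype had received it. The later wild-type libraries of day 10 and day 25, which the treatment protocol places after a doxycycline pulse of 5 days, served as 2 further looks at the wild type. Each clone gave 1 library and the wild type 1 library, so the gap between N5 and N9 was the only replicate error at t=0. The locus of the transgene, its driver and the origin of the wild-type line are not given in the sources used here.

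Methylation of cytosine in CpG pairs is laid down by the de novo enzymes Dnmt3a and Dnmt3b with their cofactor Dnmt3l, and is copied after each DNA replication by Dnmt1, which Uhrf1 brings to the new strand. Most CpGs of a mammalian genome are methylated, whereas CpG-rich gene starts are mostly not. At imprinted genes the methylation of 1 parental allele is inherited from sperm or egg, and pluripotent cells in culture are known for drift at such sites. Oxidative bisulfite sequencing was the assay: 5-hydroxymethylcytosine is oxidised first, so that a methylated call stands for 5-methylcytosine. A level here is methylated calls over all calls, in percent, and a difference is the mean of N5 and N9 minus the wild type, in percentage points.

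The inducible microRNA is miR-203, which lies on chromosome 12 in mouse. Its mature forms are shown because they are what the transgene is built to make, credited to RefSeq on GRCm38.p6 and with the seed, bases 2 to 8, in capitals.
mmu-miR-203-5p: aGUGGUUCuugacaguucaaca
mmu-miR-203-3p: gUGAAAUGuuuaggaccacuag

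The sequences of 3 called gene starts are given next, because their own bases were read deeply enough to show the difference, from RefSeq promoters of GRCm38.p6, 250 bases before the start to 50 bases from it, read on the strand of the gene with each CG in capitals. They are the named gene windows, described further on, with at least 3 CpGs and 40 calls within these bases in each t=0 library and a level above 0 in at least 1 of them. Of 24 called windows whose bases of this kind were measured, 6 were at 0 in every t=0 library. Among these 6 was the named D11Wsu47e, from 157, 216 and 174 calls in N5, N9 and the wild type, so its difference lay outside these bases. Gm37116, a predicted coding gene, lies on the minus strand at chr3:88284749-88285048 and holds 12 CpGs there. Masp2, the gene of a serine protease of the lectin pathway of complement, lies on the plus strand at chr4:148602294-148602593 with 6 CpGs. The gene 4833420G17Rik lies on the plus strand at chr13:119462509-119462808 with 20 CpGs.
Gm37116: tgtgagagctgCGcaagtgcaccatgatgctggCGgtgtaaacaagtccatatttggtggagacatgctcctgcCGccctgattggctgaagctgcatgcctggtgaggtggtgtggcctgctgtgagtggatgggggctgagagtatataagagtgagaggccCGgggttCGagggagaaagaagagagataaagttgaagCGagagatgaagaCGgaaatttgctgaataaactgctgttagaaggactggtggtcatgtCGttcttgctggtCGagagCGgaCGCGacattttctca
Masp2: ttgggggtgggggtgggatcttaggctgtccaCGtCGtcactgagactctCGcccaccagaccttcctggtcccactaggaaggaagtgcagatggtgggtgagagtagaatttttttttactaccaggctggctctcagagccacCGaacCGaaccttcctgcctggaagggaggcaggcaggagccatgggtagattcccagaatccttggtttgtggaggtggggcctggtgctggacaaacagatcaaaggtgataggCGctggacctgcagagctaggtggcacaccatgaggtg
4833420G17Rik: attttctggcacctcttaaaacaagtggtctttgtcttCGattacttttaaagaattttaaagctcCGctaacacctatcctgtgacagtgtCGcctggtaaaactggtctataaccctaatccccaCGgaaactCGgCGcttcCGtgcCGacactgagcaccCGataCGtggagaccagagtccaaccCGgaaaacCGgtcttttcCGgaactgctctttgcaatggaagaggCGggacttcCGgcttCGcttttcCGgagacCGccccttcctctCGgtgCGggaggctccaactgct

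Within these bases Gm37116 was at 78.9% for N5 and 52.1% for N9, against 16.9% in the wild type at t=0, from 57, 48 and 77 calls. Masp2 was at 65.2% (N5) and 75.7% (N9), and at 28.8% in the wild type, from 115, 70 and 73 calls. In both genes every clone lay above the wild type, and the later wild-type libraries stayed near the first, at 13.0% and 20.8% for Gm37116 and 29.6% and 26% for Masp2 at day 10 and day 25. In 4833420G17Rik the order was the other way: 0 of 192 calls were methylated in clone N5 and 0.352% of 284 in clone N9, against 10.3% of 165 calls in the wild type. The later wild type was at 9.15% at day 10 and fell to 3.59% at day 25 within these bases. At t=0 the methylated wild-type calls of that gene sat near the start, with 4 of 7 calls methylated at the CpG 7 bases before it. Each CpG was read only a few times, so values of single CpGs carry wide counting error.

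The 3 libraries held 118599985 CpG calls in N5, 129264791 in N9 and 132961653 in the wild type, a mean autosomal coverage of 5.67, 6.18 and 6.31 per CpG; over all 12 libraries of the series coverage ranged from 4.88 to 9.11. The knock-in libraries stood apart from the wild type in more than methylation. Chromosome 8 was covered 1.36 times as deeply as the median autosome in both clones and 1.00 times as deeply in the wild type, while every other autosome stayed between 0.968 and 1.02 times its wild-type share in both clones. Chromosome X was at 0.529 and 0.530 of the autosomal coverage in N5 and N9, against 0.659 in the wild type. In the libraries labelled as these clones at day 10, chromosome X was at 0.702 in both, and chromosome 8 at 1.11 in N5 and 1.36 in N9. At day 25 chromosome X was at 0.604 and 0.626 in N5 and N9, and chromosome 8 at 1.38 in both. The first 3000000 bp of chromosome Y were at 0.0386 and 0.0402 in N5 and N9, against 0.00158 in the wild type, and in the same clones they were at 0.00129 and 0.000896 at day 10 and at 0.0130 and 0.0109 at day 25. Mitochondrial CpGs were covered 139 and 92.7 times in N5 and N9, against 430 in the wild type. N5 was run on another flow cell than N9 and the wild type. The feeder cells could add their own DNA, and the summed level of 24 windows of fibroblast genes was 11.4% and 11.8% in N5 and N9, against 9.55% in the wild type, with 12 of the 24 above the wild type in both clones and 6 below in both; 30 windows of pluripotency genes together stood at 8.51% and 8.05%, against 7.72%. The part of these differences in the results was not tested. Calls within 100 bp of the miR-203 hairpin, 0.979 and 1.30 times the autosomal coverage in N5 and N9 against 1.18 times in the wild type, did not set the genotypes apart and thus check neither label.

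Before doxycycline the knock-in genome was more methylated than the wild type. Over 20383623 autosomal CpGs the level was 64.8% in N5 and 64.9% in N9, a mean of 64.8% ± 0.0893 (SD, n = 2), against 60.6% in the wild type. The wild-type interval for counting error was 60.60% to 60.62% (Wilson, 95%). The difference was 4.21 points, 4.14 for N5 and 4.27 for N9, while N5 minus N9 was -0.126 points. The wild type stood at 61.4% at day 10 and 61.1% at day 25, so its 3 iPS libraries all lay below both clones. This level is given without a test. Intervals cover counting error only.

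The gap was found in every class of CpG and, in points, was small where methylation is low. In CpG-rich gene windows, with at least 60 CpGs within 1000 bp of a gene start, the level was 4.59% for N5 and 4.69% for N9, against 4.03% in the wild type. The later wild type was at 4.32% and 4.195% there. The other gene windows were at 40.8% and 40.5% in N5 and N9, against 37.3% in the wild type. Gene bodies outside the windows stood at 68.3% and 68.4%, against 63.6%, and intergenic CpGs at 69.1% in both clones, against 65.0%. Gene bodies thus differed by 4.77 points and intergenic CpGs by 4.05.

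By local density the pattern was alike. CpGs with at least 20 CpGs in the surrounding 500 bp were at 7.51% in clone N5 and 7.35% in clone N9, against 6.91% in the wild type. Those of intermediate density were at 60.7% and 60.5%, against 55.6%, the largest difference among the 3 density classes at 5.05 points. Sparse CpGs, fewer than 10 in 500 bp, were at 71.7% and 71.8%, against 67.5%. For the dense CpGs the later wild type stood at 7.34%, next to N9, and at 7.01%.

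**Figure D1:**
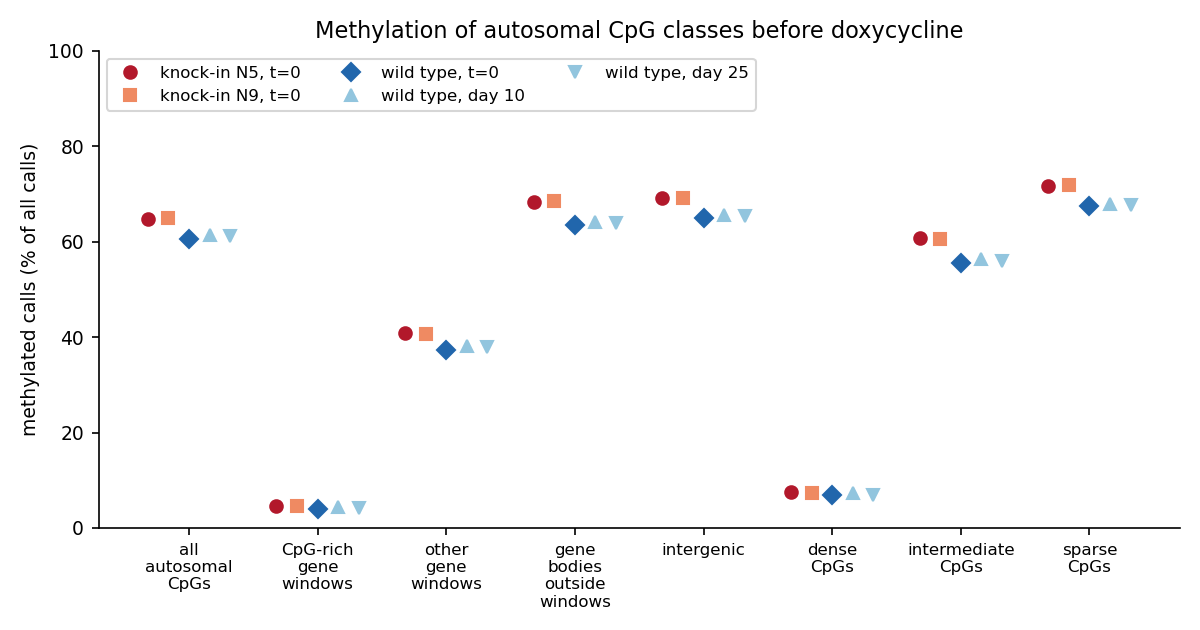
Methylated calls as a percentage of all calls (y axis) for 8 classes of autosomal CpGs (x axis) in the knock-in clones N5 and N9 at t=0 and the wild type at t=0, day 10 and day 25, 1 point per library. Over all autosomal CpGs the clones sit at 64.8% and 64.9%, above the wild type at 60.6%, 61.4% and 61.1%, and in CpG-rich windows and dense CpGs the 5 libraries nearly coincide.

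The genome was then cut into tiles of 10000 bp, of which 233969 autosomal ones had at least 30 calls in every library. The median tile was 3.70 points higher in the knock-in, with quartiles of 0.665 and 6.53 points, and 79.1% of tiles were higher. Between N5 and N9 the median tile differed by 0.0948 points, with a median absolute gap of 2.74 points and an SD of 4.64. The knock-in mean exceeded the wild type by more than the gap of its own clones in 54.5% of tiles and fell short of it by more than that gap in 8.39%. The variance of N5 minus N9 was 1.94 times what counting alone gives, against 2.81 times for N5 minus the wild type and 2.81 times for N9 minus the wild type, and 1.84 times for the wild type at t=0 minus day 10.

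**Figure D2:**
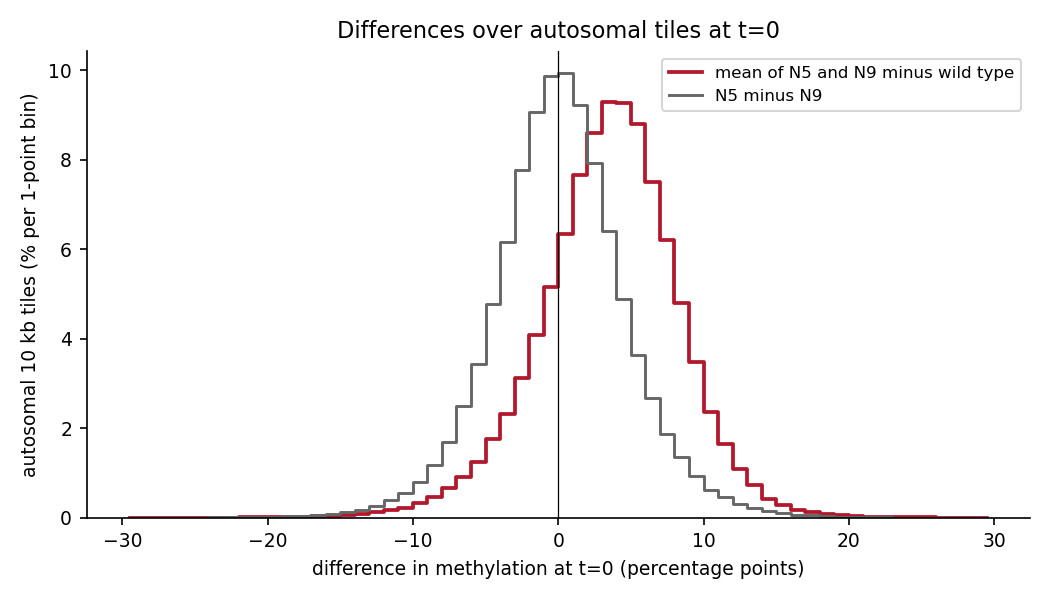
Distribution of differences in methylation at t=0 over 233969 autosomal tiles (x axis, percentage points in bins of 1 point; y axis, percent of tiles), for the mean of N5 and N9 minus the wild type and for N5 minus N9. The first curve is centred to the right of 0, with a median of 3.70 points, and the second near 0, with a median of 0.0948.

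With edgeR's quasi-likelihood test and Benjamini-Hochberg adjustment at 0.05, 3582 autosomal tiles (1.53%) were higher in the knock-in and 145 (0.062%) lower. At unadjusted p the split was 46667 higher to 2100 lower. limma gave an unadjusted split of 34063 higher to 2644 lower, with a median log2 odds ratio over all tiles of 0.271, beside 0.270 by edgeR. With each library centred, limma gave 7670 higher to 8977 lower and a median of 0.0384. The edgeR tile calls were tested against no difference, so the shift common to all tiles is part of them and of the differences below. limma left 1 tile higher and 0 lower without centring, and 1 in each direction with it, so the count depends on the tool. With N5 left out edgeR called 233 tiles higher and 29 lower, with N9 left out 362 and 37, and with the flow cell as a term 990 and 82. The spread in edgeR comes from pairs of clones at 4 stages, and the wild type, with 1 library a stage, is assumed to vary as they do.

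The called tiles kept their side against later wild-type cells. Of the 3582 higher tiles, 3456 (96.5%) had both clones above both the day 10 and the day 25 wild type, against 51.2% of all tiles. Of the 145 lower tiles, 136 had both clones below both, against 5.96% of all tiles. These shares use the clone values by which the tiles were called. The median higher tile was at 73.8% in the knock-in and 59.3% in the wild type, and the median lower tile at 51.3% in the knock-in and 74.0% in the wild type. Of the higher tiles 64.1% overlapped a gene and of the lower tiles 33.8%, beside 47.1% of all tiles tested; these shares are a description.

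Later wild-type cells, which took no part in the difference, were used to sort tiles by level. In percentage points the shift differed with that level. It was 0.880 points at the median for tiles up to 10%, 4.50 for tiles of 30 to 50%, 5.43 for tiles of 50 to 60% and 2.44 for those above 80%. Tiles of 50 to 60% also held the greatest share of calls, 4.13% higher, against 0.575% among those above 80%. By CpG content the median was 1.11 points in tiles of up to 30 CpGs, 4.96 in tiles of 100 to 150 and 1.89 in tiles above 250. In points the median was thus highest in partly methylated tiles and, taken separately, in tiles of middling CpG content. An equal odds ratio gives fewer points near either end of the scale, so these medians do not show whether the odds shift varied.

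The shift reached every autosome, and chromosome 8, the one with raised coverage in both clones, had the smallest. Its median tile was 2.54 points higher in the knock-in, against 3.04 to 4.42 on the other 18 autosomes. Of the 145 lower tiles, 78 (53.8%) lay on chromosome 8, which holds 5.27% of the tiles tested; 0.633% of its tiles were lower, against 0.0302% on the other autosomes. Its share of higher tiles was 1.37%, against 1.54% elsewhere. With chromosome 8 left out, 67 lower tiles remained. Chromosome 8 thus had both the raised coverage in the clones and the largest share of lower calls. The part of its coverage in those calls was not tested. On chromosome 17 the level was 60.8% for N5 and 61.1% for N9, against 55.7% in the wild type, the widest gap of an autosome at 5.21 points.

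**Figure D3:**
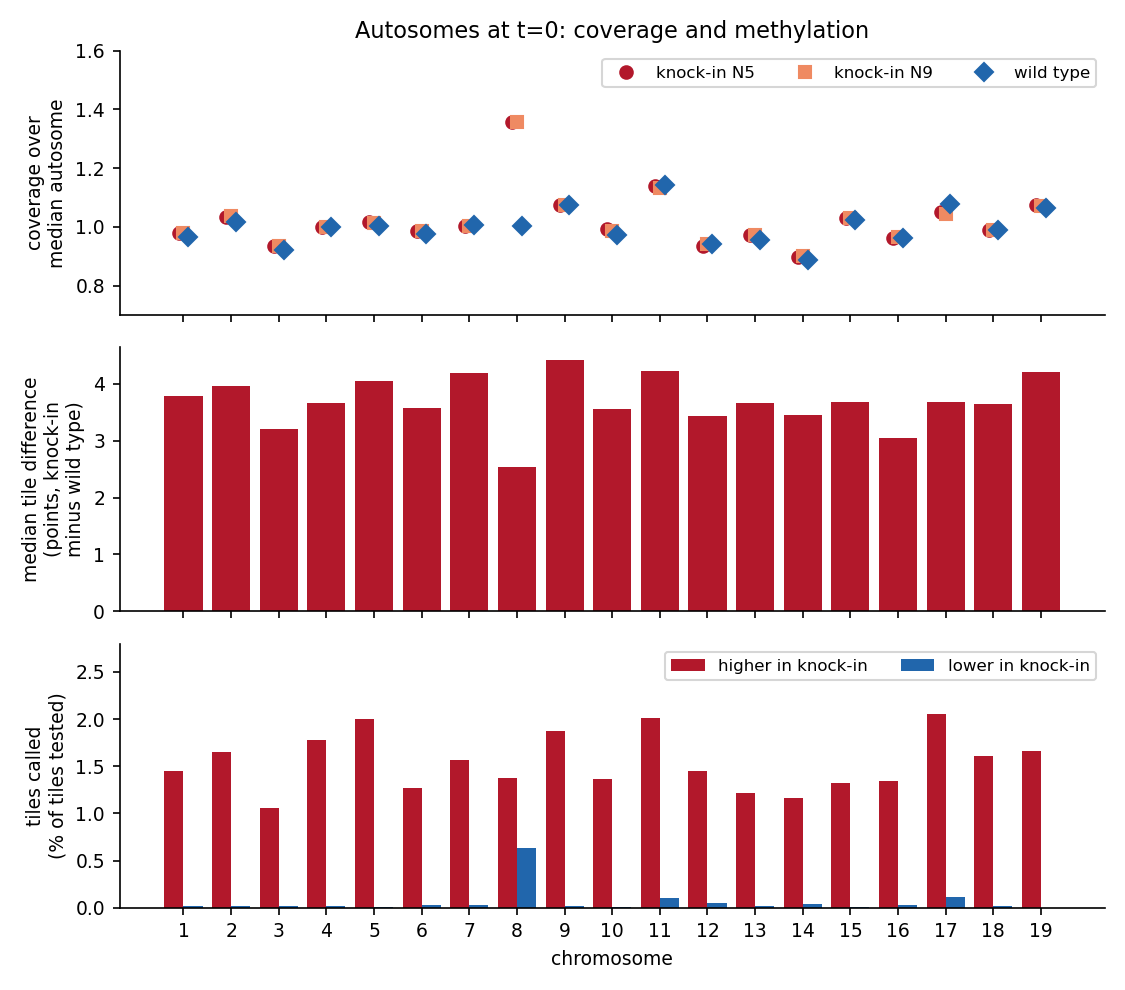
Coverage of each autosome over the median autosome in N5, N9 and the wild type at t=0 (top), the median difference of its tiles in percentage points, knock-in minus wild type (middle), and the percentage of its tiles called higher or lower in the knock-in (bottom); the x axis gives the chromosome. Chromosome 8 stands out with a coverage of 1.36 in both clones against 1.00 in the wild type, the lowest median difference at 2.54 points and 0.633% of tiles lower.

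The longest run of lower tiles covered Zfp42 on chromosome 8. Zfp42, also called Rex1, encodes a zinc finger protein used as a marker of naive pluripotent cells. The 5 adjoining tiles at chr8:43290001-43340000 (mm10) together were at 26.7% in clone N5 and 28.1% in clone N9, against 51.6% in the wild type with a Wilson interval of 49.97 to 53.25%. The wild type stayed at 50.9% at day 10 and 45.9% at day 25, above both clones. The tile just upstream of the gene, at chr8:43310001-43320000 and 2992 bp from it, had the largest difference among lower tiles, with 21.5% for N5 and 29.4% for N9 against 77.2% in the wild type (adjusted p = 5.76e-04 by edgeR). It rests on 79, 85 and 79 calls, whereas the next tile upstream, from 868, 1030 and 740 calls, was at 34.3% and 36.8% against 69.6% (adjusted p = 1.53e-06 by edgeR).

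The lower levels ended within a tile on either side, and the window at the gene start differed little. The tiles on either side of the run were at 64.6% and 63.6% in N5 and N9 against 63.3% in the wild type, and at 67.7% and 67.6% against 70.9%. The window around the Zfp42 start was at 14.3% in clone N5 and 11.2% in clone N9, against 16.0% in the wild type (adjusted p = 0.836 by edgeR), low in every library. The neighbouring start of Triml2, a tripartite motif gene, was at 15.4% and 6.21%, against 27.2%, and did not pass in the main comparison (adjusted p = 0.422 by edgeR). That chromosome was also covered more deeply in the clones, as given above. Another lower tile of chromosome 8, chr8:91430001-91440000 inside Fto, the gene of an RNA demethylase, was at 48.5% for N5 and 46.5% for N9, against 81.9% in the wild type (adjusted p = 3.50e-06 by edgeR).

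Lower tiles were also found off chromosome 8. At chr6:5330001-5340000, 31656 bp from Pon2, a paraoxonase gene, N5 was at 52.0% and N9 at 45.4%, against 83.1% in the wild type (adjusted p = 6.51e-05 by edgeR). At chr14:37390001-37400000 the clones were at 40.4% and 37.1%, against 75.9% in the wild type from 58 calls (adjusted p = 0.0282 by edgeR). The later wild type was at 58.7% and 76.5% in that tile.

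The longest run of higher tiles lay on chromosome 17, at chr17:27210001-27260000, where no coding gene is annotated. Its 5 tiles together stood at 70.01% in clone N5 and 71.0% in clone N9, against 44.7% in the wild type with a Wilson interval of 43.6 to 45.8%. The wild type was at 48.4% at day 10 and 51.5% at day 25, below both clones. Within the run the difference was 20.9, 24.5, 22.1, 28.7 and 26.1 points from tile to tile. It was 9.48 and 10.3 points in the 2 tiles before the run, and 8.70 and 1.21 points in the 2 tiles that follow. The nearest gene is Lemd2, of an inner nuclear membrane protein, whose window was at 32.2% and 31.7%, against 19.03%, and did not pass (adjusted p = 0.484 by edgeR). A run of 4 higher tiles on chromosome 18 overlapped Lvrn and Arl14epl, at 60.6% for N5 and 59.5% for N9 against 42.7% in the wild type.

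Single higher tiles reached larger differences with fewer calls. The one at chr17:35600001-35610000, 7923 bp from Gm9573, was well covered, with 77.8% of 688 calls in clone N5 and 82.1% of 609 in clone N9, against 35.9% of 1032 in the wild type (adjusted p = 2.06e-10 by edgeR), and the wild type was at 39.1% and 39.8% later. The one at chr17:37420001-37430000 had the largest difference, 44.1 points, with 70.8% for N5 and 90.6% for N9 against 36.5% in the wild type (adjusted p = 0.0227 by edgeR). It had only 52 wild-type calls at t=0, and the later wild type stood at 74.6%, between the clones, and at 43.8%. The tile at chr17:33360001-33370000, 1105 bp from the zinc finger gene Zfp81, was at 80.3% and 72.9%, against 36.9%. Those at chr12:23760001-23770000 and chr4:92810001-92820000 differed by 40.6 and 39.2 points, each from fewer than 100 calls in any of the 3 libraries.

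Gene starts were tested in windows of 1000 bp to either side, 19352 of them on autosomes. Of these, 31 (0.16%) were higher in the knock-in and 4 (0.0207%) lower by edgeR's adjusted p under 0.05, and 1340 (6.92%) were higher and 225 (1.16%) lower at unadjusted p. The median log2 odds ratio over all windows was 0.276 by edgeR. limma gave an unadjusted split of 1196 higher to 232 lower with a median of 0.255, and with each library centred 763 higher to 380 lower with a median of 0.101. The adjusted calls lean on chromosome X: 105 of its 770 windows were lower, which enter the adjustment of all windows, and with autosomes alone edgeR called 0 windows, though 1609 had an unadjusted p under 0.05. limma called 1 autosomal window, and edgeR called 10 higher and 2 lower with N5 left out and 7 and 2 with N9 left out. With the flow cell as a term, 24 of the 31 higher and 3 of the 4 lower calls were kept. The named windows below are thus the top of a ranking more than a settled list. All 31 higher and 4 lower windows differed by more than the gap between the clones, beside 49.9% of all autosomal windows. That comparison uses the clone values by which the windows were called, so it is no separate support.

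Of the 31 higher windows, 29 had both clones above the wild type at day 10 and day 25 as well, beside 30.5% of all windows, and 3 of the 4 lower ones had both clones below, beside 10.6%. These shares use the clone values by which the windows were called. At the median the 31 differed by 26.1 points from the t=0 wild type and by 11.3 from the later ones. Their median CpG number was 47, against 69 over all windows. Of the 31, 12 were CpG-rich and 19 were not, beside 10921 CpG-rich windows among the 19352 tested. Against the later wild type the differences of the 31 were smaller at the median.

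Among the called windows the largest difference was at Gm37116 (chr3:88283798-88285798), with 75.1% in clone N5 and 56.0% in clone N9, against 22.6% in the wild type at t=0, 27.3% at day 10 and 30.2% at day 25 (adjusted p = 0.0108 by edgeR). The clones lay wide apart there, with the widest gap among the named windows, and both still cleared every wild-type library. Elobl, an elongin B-like gene (chr11:88965931-88967931), was at 82.1% and 78.8%, against 48.0%, 40.7% and 47.2% in the wild type at the 3 stages (adjusted p = 0.00774 by edgeR). Masp2 (chr4:148601544-148603544) was at 67.5% and 69.7%, against 38.1%, 28.9% and 34.9% (adjusted p = 0.0452 by edgeR). In both, each clone lay above all 3 wild-type libraries, and the day 10 wild type was lower than at t=0.

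Wfdc12, which encodes a secreted protease inhibitor (chr2:164189558-164191558), had the lowest adjusted p of the named windows. It was at 84.3% for N5 and 82.4% for N9, against 53.5% in the wild type, which then stood at 58.8% and 71.6% (adjusted p = 0.00567 by edgeR). Arl14epl on chromosome 18, inside the run of higher tiles, was at 50.6% and 48.4%, against 18.3%, 28.6% and 27.9% in the wild type (adjusted p = 0.0116 by edgeR). Gm7030 (chr17:36128425-36130425) was at 34.3% of 35 calls in clone N5 and 45.7% of 46 in clone N9, against 8.08% of 99 in the wild type, and its later wild-type levels of 14.3% and 25.8% came closer to the clones. Ppp2r3d, a regulatory subunit gene of protein phosphatase 2A, was at 68.6% and 58.5%, against 32.4%, with 34.1% and 53.0% in the later wild type.

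For some windows the later wild type was near the clones. Mstn, the gene of myostatin, which restrains muscle growth (chr1:53060640-53062640), was at 75% for N5 and 84.3% for N9, against 48.5% in the wild type at t=0 but 65.7% and 71.9% later. The hair keratin gene Krt34 was at 87.7% and 86.7%, against 58.0%, with 83.3% and 68.4% in the later wild type. Fam3b, of a secreted cytokine-like protein, was at 67.6% and 74.8%, against 42.1%, with 56.1% and 67.0% later. Gm52051 was at 62.3% and 71.3%, against 30.9%, with 45.5% and 55.6% later. In these 4 the t=0 wild-type library was itself the lowest of the 3 wild-type levels. The same held for Gm37116, Gm7030, Arl14epl, Ppp2r3d and Wfdc12, and all were called against that library.

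The other 19 higher windows differed by 3.23 to 27.0 points. Gdf15, a stress-induced cytokine gene, was at 54.3% in clone N5 and 47.3% in clone N9, against 24.0% in the wild type (adjusted p = 0.0464 by edgeR). Pttg1, the gene of securin, was at 30.8% and 33.6%, against 10.8%, but the later wild type was at 30.6% and 28.8%. Fv1, which restricts murine leukaemia viruses, and Miip were called with windows that overlap by 1741 bp, so they are a single observation: 23.4% and 24.5%, against 7.69%, in the Fv1 window. Among the CpG-rich ones, Actg1, the gene of cytoplasmic gamma-actin, was at 5.02% and 4.18%, against 0.244%, and Casc3, of the exon junction complex, at 5.36% and 6.19%, against 0.684%. These are small differences in points at starts that stayed almost unmethylated in every library.

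The 4 lower windows were Fam169a, Grin2b, 4833420G17Rik and D11Wsu47e. Fam169a (chr13:97066287-97068287) was at 2.97% for N5 and 9.02% for N9, against 24.0% in the wild type, with 15.8% and 19.3% later (adjusted p = 0.0167 by edgeR). Grin2b, of an NMDA receptor subunit (chr6:136172615-136174615), was at 8.83% and 6.39%, against 25.5%, but the later wild type was at 11.3% and 4.93%, and with windows of 500 bp the direction turned (log2 odds ratio 0.238). The whole window of 4833420G17Rik was at 2.76% and 3.64%, against 12.4%, 14.0% and 16.5%. D11Wsu47e was at 1.97% and 0.621%, against 6.20% and later 2.38% and 2.76%, and it turned to a log2 odds ratio of 0.865 when the denser gene end was used.

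**Figure D4:**
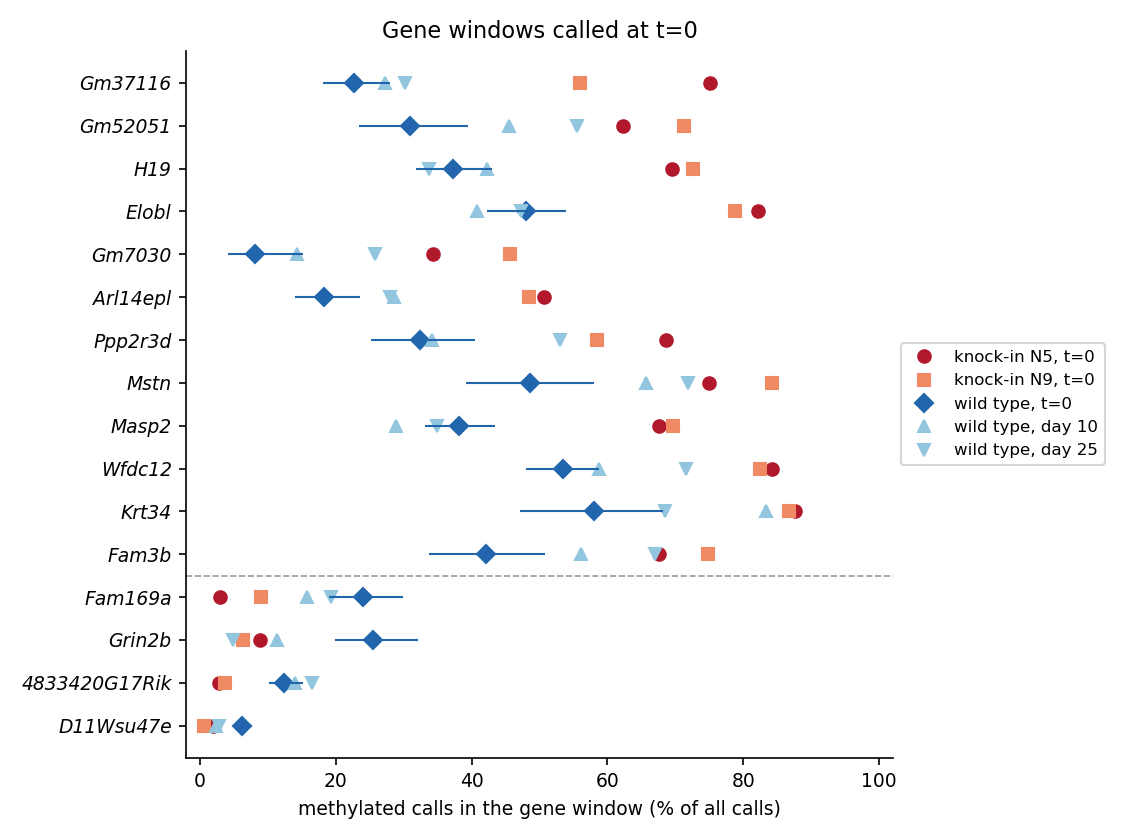
Methylated calls as a percentage of all calls (x axis) in the windows of 16 named genes (y axis; higher in the knock-in above the dashed line, lower below) for N5 and N9 at t=0 and the wild type at t=0, day 10 and day 25; the bar is the Wilson 95% interval of the wild type at t=0. The 16 were chosen with both clones on the same side of the t=0 wild type. In Mstn, Krt34, Fam3b, Grin2b and D11Wsu47e a later wild-type point reaches within 5 points of a clone.

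Imprinted genes held 1 called window, H19, among 41 measured. At unadjusted p, 6 of the 41 were higher and 3 lower, against 6.92% and 1.16% of all windows, and the median difference was 0.958 points, against 0.761 over all windows. H19 is an RNA gene made from the maternal chromosome, and its upstream control region, methylated on the paternal copy, also governs Igf2, a growth factor gene. The H19 window (chr7:142577146-142579146; its start taken as the CpG-denser gene end) was at 69.6% in clone N5 and 72.6% in clone N9, against 37.2% in the wild type, with a Wilson interval of 31.9 to 42.9% (adjusted p = 0.0120 by edgeR). Later wild-type cells were at 42.3% and 33.7%, so the 3 wild-type libraries lay together and far below both clones.

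The gap was wider upstream, where the control region lies. Between 1 and 4 kb before the start (chr7:142579146-142582145, 81 CpGs) the level was 52.8% in N5 and 59.2% in N9, a mean of 56.0% ± 4.50 (SD, n = 2), against 13.9% in the wild type with a Wilson interval of 11.0 to 17.4%. Wild-type cells were at 11.6% at day 10 and 32.4% at day 25, so the day 25 library lay between. In the bin from 3 to 4 kb, N5 was at 65.2% and N9 at 75%, against 9.20% in the wild type. Beyond 5 kb upstream every library was at 62.5% or more in each 1 kb bin, as far as 10 kb. Igf2 itself was at 87.0% and 84.0%, against 71.9%, and did not pass (adjusted p = 0.351 by edgeR).

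**Figure D5:**
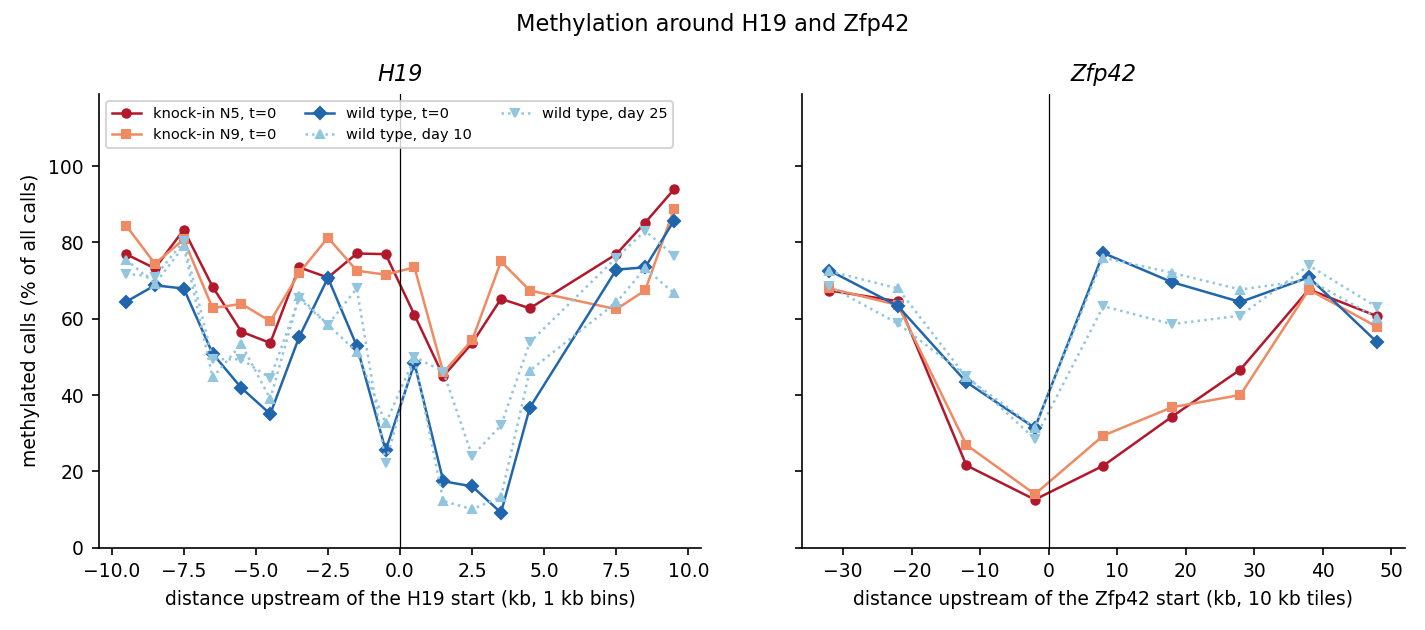
Methylated calls as a percentage of all calls (y axis) by distance upstream of the gene start in kb (x axis; negative is into the gene), in bins of 1 kb around H19 (left) and in tiles of 10 kb around Zfp42 (right), for N5 and N9 at t=0 and the wild type at t=0, day 10 and day 25. Both clones lie above the t=0 wild type from 1 to 4 kb upstream of H19 (56.0% against 13.9%) and lie below it over the 5 tiles at Zfp42 (26.7% and 28.1% against 51.6%).

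Other imprinted starts pointed both ways without passing. Zdbf2, a paternally expressed gene, was at 28.8% for N5 and 18.99% for N9, against 50.9% in the wild type at t=0, 57.8% at day 10 and 26.6% at day 25 (adjusted p = 0.117 by edgeR). Kcnq1ot1, an RNA gene whose start is the imprint centre of its domain, was at 32.1% and 17.1%, against 45.5%, 52.3% and 52.4% in the 3 wild-type libraries (adjusted p = 0.286 by edgeR). With the 3 wild-type iPS libraries taken as 1 group, which compares t=0 clones with wild-type cells of all 3 stages, edgeR called 94 windows higher (0.486%) and 17 lower (0.0878%), of which 18 and 2 were among the 35. Kcnq1ot1 was then lower, with 24.6% ± 10.6 in the knock-in (SD, n = 2) and 50.1% ± 3.96 in the wild type (SD, n = 3; adjusted p = 0.00693 by edgeR). Snurf, at the imprint centre of the Prader-Willi domain and named after its values were seen, was at 27.0% and 11.0%, against 38.3%, 49.3% and 61.3% (adjusted p = 0.00187 by edgeR). At both, the clones differed widely and yet stayed below every wild-type library.

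Of 30 windows of pluripotency genes, 0 passed by edgeR, 2 (6.67%) were higher and 0 lower at unadjusted p, beside 6.92% and 1.16% of all windows, and the median difference was 0.0195 points. Pou5f1, which encodes Oct4, was at 28.6% in clone N5 and 31.2% in clone N9, against 15.5% in the wild type at t=0, 12.8% at day 10 and 18.9% at day 25 (adjusted p = 0.322 by edgeR). Both clones cleared the 3 wild-type libraries, and against these as 1 group Pou5f1 passed (adjusted p = 0.0445 by edgeR). Lefty2, an antagonist of Nodal signalling, was at 33.3% and 36.2%, against 20.5% (adjusted p = 0.426 by edgeR). Nanog, a core pluripotency factor, was at 10.8% and 10.0%, against 12.5%. Dppa4 was at 19.2% and 11.8%, against 27.9%, and Dppa3, which guards maternal methylation in the zygote, at 14.4% and 16.5%, against 24.0%; neither passed.

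Of 19 windows of genes that write and keep methylation, 0 passed by edgeR, beside 0.16% higher and 0.0207% lower of all windows. At unadjusted p, 1 was higher and 1 lower, beside 6.92% and 1.16% of all windows. The median difference was 0.133 points, beside 0.761 over all windows. The starts of Dnmt3a and Dnmt3b were nearly unmethylated throughout, at 1.13% and 1.26% against 1.71% for Dnmt3a and at 3.02% and 5.21% against 7.13% for Dnmt3b. Dnmt1 was at 76.7% in both clones, against 67.4% in the wild type at t=0, 66.3% at day 10 and 76.9% at day 25. Dnmt3l was at 62.6% for N5 and 56.3% for N9, against 54.7%, and Uhrf1 at 6.37% and 3.11%, against 3.47%. Setdb1, of a histone methyltransferase that silences retroelements, was at 12.2% and 10.1%, against 24.0%, with 10.0% and 18.7% in the later wild type. Hells, of a chromatin remodeller, was at 0.683% and 0.910% in N5 and N9, against 0 methylated of 844 calls in the wild type (adjusted p = 0.231 by edgeR), with 1.205% and 0.205% in the later wild type. Methylation of these starts says nothing on the amount of enzyme.

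The window of Mir203 itself was at 12.0% in clone N5 and 12.4% in clone N9, against 7.45% in the wild type, and at 11.0% and 10.8% in the later wild type (adjusted p = 0.636 by edgeR). Col1a1 and Gt(ROSA)26Sor, loci often used for inducible transgenes, were at 28.2% and 16.3% against 19.4%, and at 0% and 0.148% against 0% of 503 calls. None of these 3 windows passed.

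Lineage genes, silent or low in pluripotent cells, gave 0 calls by edgeR in any of their lists. Their counts at unadjusted p stand beside 6.92% higher and 1.16% lower of all windows, and their medians beside 0.388 points for windows of at least 60 CpGs and 3.00 for those with fewer. Endoderm genes had a median difference of 1.98 points, with 3 of 17 (17.6%) higher and 0 lower at unadjusted p. Cer1, of a secreted Nodal and BMP antagonist, was at 61.8% for N5 and 57.0% for N9, against 37.7%, 37.5% and 40.4% in the wild type (adjusted p = 0.174 by edgeR), and passed against the 3 wild-type libraries as 1 group (adjusted p = 0.0142 by edgeR). Blood genes had a median of 5.14 points, with 2 of 14 (14.3%) higher and 0 lower at unadjusted p. Lyl1, a blood transcription factor gene on chromosome 8, was at 37.4% and 35.1%, against 19.09% in the wild type at t=0, 30.5% at day 10 and 34.9% at day 25, so its last wild-type level was as high as N9.

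Mesoderm and cardiac genes had a median of 1.18 points, with 3 of 22 higher and 0 lower at unadjusted p, among them Tbx6, a paraxial mesoderm factor, at 24.7% and 19.2%, against 11.4%, 11.1% and 21.6% in the wild type at the 3 stages, the last of them above N9. Neuroectoderm genes had a median of 0.0535 points, with 2 of 17 higher, and trophoblast genes 0.0591 points, with 0 of 13 in either direction at unadjusted p. The 39 Hox genes, which pattern the body axis, had a median of 0.438 points, with 0 higher and 2 lower. Hoxd8 was at 2.06% in clone N5 and 3.30% in clone N9, against 8.52% in the wild type at t=0 and 3.33% and 7.91% later. Hoxa9 was at 12.4% and 11.5%, against 20.3% at t=0, but the day 10 wild type, at 9.25%, lay below both clones. The starts with low methylation thus differed by few points, as the CpG-rich windows did.

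Germline genes, which DNA methylation keeps silent in most cells, had a median of 0.967 points, with 0 of 25 higher and 1 lower at unadjusted p, and their summed level was 38.2% for N5 and 38.4% for N9, against 38.7% in the wild type. Genes of the 2-cell-like state had a median of 3.45 points over 11 windows, with 0 in either direction at unadjusted p. Housekeeping genes had a median of 0.1595 points, with 1 of 13 higher. Fibroblast genes had a median of 1.18 points, with 2 of 24 (8.33%) higher and 0 lower at unadjusted p. Lum, of a collagen-binding proteoglycan, was at 44.0% and 39.3%, against 66.7% in the wild type from 27 calls and 36.7% and 31.6% later. Pdgfrb, a growth factor receptor of mesenchymal cells, was at 47.2% and 47.1%, against 24.9%, 26.5% and 16.9% (adjusted p = 0.118 by edgeR), and passed against the 3 wild-type libraries as 1 group (adjusted p = 0.00188 by edgeR). All medians stand beside 0.761 points over all autosomal windows, and counts at unadjusted p beside 6.92% higher and 1.16% lower. None of the lists was tested as a set. A window that did not pass is not shown to be unchanged.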

How the data were processed

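Mouse iPS cells and their embryoid bodies (12 libraries) were assayed by oxidative bisulfite whole-genome sequencing, in 8 groups of genotype and stage. Per the submitters' processing notes, BWA, Picard 1.91 and build mm10 were used; no source used here names the program that called methylation. The deposited table holds, per the file headers, whole-number counts for 21875444 CpGs, of methylated calls (.C) and of every call (.cov), with no normalization. All of its 32 value columns were matched (0 unmatched). The wild type has a pair of column sets a stage, summed as lanes of 1 library; no header ties them to a lane.

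Calls were pooled in windows of 1000 bp on either side of gene starts (minimum 5 CpGs, and 10 calls in each library) and in tiles of 10000 bp (minimum 30 calls in each library), without chromosome Y and the first 3000000 bp of a chromosome. The strand came from RefSeq promoter or hairpin entries for 17497 of 21896 genes (79.9%); for the other 4399 the gene end with more CpGs was used. Methylated and unmethylated counts were fitted with edgeR 4.0.16 (R 4.3.3) as library effects plus 8 groups, with 4 residual degrees of freedom, a common dispersion of 0.0240 over windows and of 0.00581 over tiles, and Benjamini-Hochberg adjustment over all features, chromosome X included. The threshold was 0.05 and the approach was tested on simulated data. limma 3.58.1 on logits was an alternative. The 2 wild-type columns of t=0 may be technical, so p-values measure the spread between clones. The clones share a number across stages because the labels name them as the same line, which was not tested. Their deviations at different stages had correlations of only -0.0924 to 0.0216, and their coverage of chromosomes 8, X and Y changed between stages, as given above.

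Named windows passed with both clones on 1 side of the wild type, a clone gap below the difference and at least 30 calls in each t=0 library: the 12 with the largest difference in each direction, plus the 3 autosomal members of each of 13 lists with the lowest p, and Mir203, Dnmt1, Dnmt3a, Dnmt3b, Dnmt3l, Uhrf1, Pou5f1, Nanog, Col1a1 and Gt(ROSA)26Sor; tiles were named likewise, 5 in each direction. Triml2, Snurf, Lemd2, Gdf15, Pttg1, Fv1, Miip, Actg1 and Casc3 were named after their values were seen, as were the runs of adjoining called tiles and the H19 upstream region. The comparison, the 13 gene lists (307 entries) and the tests were chosen with earlier results of these data known.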

Additional observations from a re-analysis of the deposited data

How the results depend on the processing

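The direction of the level over all autosomal CpGs held under each alternative run, with a difference of 4.21 points as reported, 4.06 as the mean over CpGs and 3.80 against the mean of the 3 wild-type iPS stages. On CpGs with calls in every t=0 library, intergenic CpGs differed by 4.13 points and sparse CpGs by 4.34.

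Counts of calls depended on the model. For autosomal windows (31 higher and 4 lower), limma gave 1 and 0, with centred libraries 1 and 0, and edgeR on autosomes alone 0 and 0. The wild-type columns as separate libraries gave 51 and 7, the 3 wild-type stages as 1 group 94 and 17, the t=0 libraries alone 38 and 9, and windows of 500 bp 39 and 18. Leaving out N5 or N9 gave 7 to 10 higher and 2 lower. For autosomal tiles (3582 higher and 145 lower), a flow cell term gave 990 and 82, limma 1 and 0, centred limma 1 and 1, the t=0 libraries alone 17931 and 544, separate wild-type columns 14143 and 415, and the 3 wild-type stages 31736 and 786. Leaving out N5 or N9 gave 233 to 362 higher and 29 to 37 lower. Without chromosome 8, an alternative chosen after seeing the data, 67 tiles were lower. The replicate block, with the clone as a term, gave 37 and 6 windows and 3028 and 132 tiles, and ended the call of none of the 35 windows. The flow cell term gave 30 and 5 windows, 24 and 3 of them among the 35.

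Grin2b turned to a log2 odds ratio of 0.238 with windows of 500 bp and D11Wsu47e to 0.865 with the denser gene end. Of the 16 named called windows, H19, Gm37116, Wfdc12 and Fam169a kept their call under 10 of 14 alternatives, Arl14epl under 9 of 14, Gm7030 under 9 of 13, Mstn and Gm52051 under 8, Elobl, 4833420G17Rik, Fam3b, Ppp2r3d and D11Wsu47e under 7, Masp2 and Grin2b under 6, and Krt34 under 5. The cause of these changes was not tested. At about 6 calls per CpG, single CpGs cannot be compared.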
